A study of Mus musculus with 18 samples.

Results

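The 10 genes of the tumour necrosis factor (TNF) receptor system described here were measured in mouse regulatory T cells. They are the ligand gene Ltb, the receptors Tnfrsf1b (TNFR2), Tnfrsf4 (OX40), Tnfrsf9 (also called CD137), Tnfrsf18 (GITR), Tnfrsf25 (DR3) and Cd27, and the adaptors Traf1, Traf2 and Traf3. They were picked by name from the deposited gene table and are 10 of its 23420 genes. All 10 passed the filter on low counts that left 10630 genes for testing.

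RNA was sequenced from sorted mouse regulatory T cells, the CD4 lineage defined by the transcription factor Foxp3. The cells came from 3 genotypes in 2 states, resting and effector, with 3 libraries in each of the 6 groups, 18 libraries in all. The labels write the genotypes as FCre x C1+/+, FCre x C1fl/+ and FCre x C1fl/fl, and they are called +/+, fl/+ and fl/fl here. A fl allele is one that Cre can delete, so fl/+ and fl/fl carry 1 and 2 such alleles, while the Cre itself (FCre) is shared by all 3 genotypes, the +/+ controls included. The sources used here do not give the promoter of FCre, the age and sex of the mice or the gates that defined the states. Nothing in the labels says that the 3 libraries of a group came from separate animals, so each p-value measures the spread between these samples, which may be technical.

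Receptors of this family carry signals into a cell when a trimeric ligand on a neighbouring cell, or in solution, gathers them into clusters. They have no enzyme activity of their own. Most of the receptors followed here recruit TRAF adaptors, which lead to the canonical and the alternative branch of nuclear factor kB (NF-kB) signalling. On regulatory T cells several of them act as costimulators that support survival, expansion and function.

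The shallowest library held 1658073 expected counts and the deepest 5756903 (median 3154386.5). Levels are given as CPM, the count relative to the scaled library size, and levels are compared between genes only in FPKM, which also divides by gene length. All 6 markers of regulatory T cells (Foxp3, Il2ra, Ikzf2, Ctla4, Cd3e and Cd4) were detected, with summed levels of 1930 to 3390 CPM per library. Summed markers of other cells were 93.1 to 252 CPM for conventional CD4 T cells, 84.6 to 128 CPM for plasma cells and 63.2 to 103 for myeloid cells. They were 43.7 to 111 for CD8 T or NK cells, 9.64 to 94.7 for B cells, 2.15 to 8.46 for dendritic cells and at most 1.69 for red cells. Of 3 listed genes each for plasma and red cells, 2 had values. These lists differ in their genes and length, so the sums do not rank cell types or measure purity. Several results depend on fl/fl effector replicate 1, which had the highest Tnfrsf1b, Tnfrsf4 and Tnfrsf9 of its group. It also had more CD8 T or NK marker signal (111 CPM, against 55.0 and 52.0 in the other 2 libraries), more conventional CD4 T cell marker signal (249 against 119 and 173 CPM) and less proliferation marker signal (266 against 368 and 366 CPM). Its regulatory T cell marker sum was the highest of its group as well (2610 against 1990 and 2210 CPM). It was also the deepest library of that group (4899979 against 2957684 and 1658073 expected counts). Some of these traits ran through replicate 1 of other groups. The regulatory T cell marker sum was highest in replicate 1 of each of the 6 groups. Replicate 1 was also the deepest library of every group but fl/fl resting. In +/+ effector cells replicate 1 likewise had the highest Tnfrsf1b, Tnfrsf4 and Tnfrsf9 (434, 231 and 116 CPM), but in fl/+ effector cells replicate 3 did. In fl/fl resting cells replicate 1 had more CD8 T or NK marker signal (60.5 against 47.3 and 43.7 CPM). Its proliferation marker signal was also higher (68.6 against 21.6 and 16.2 CPM). Results that rest on fl/fl effector replicate 1 are given with and without it. In bulk samples, fewer cells of a type and less RNA per cell cannot be told apart.

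The sequences just before a transcription start of some of the genes are shown because NF-kB factors act on promoters of this family. They are not those of the 3 receptors that rose together: Tnfrsf4 is not shown, and Ltb and Traf3 were not called between states. Each line is the 250 bases before a RefSeq transcription start (build GRCm38.p6), 5′ to 3′ on the gene's strand. Capitals mark matches to the NF-kB site motif (the kB consensus) or to the AP-1 motif TGANTCA, both searched on both strands. Tnfrsf9 is shown at its second listed start, chr4:150927749-150927998 (plus strand), a stretch inside the span of the gene in the GENCODE annotation. The end of the Ltb stretch also lies inside the GENCODE span of Ltb. Ltb is at chr17:35194257-35194506 (plus strand), Traf3 at chr12:111166120-111166369 (plus strand) and Tnfrsf1b at chr4:145246871-145247120 (minus strand).
Tnfrsf9: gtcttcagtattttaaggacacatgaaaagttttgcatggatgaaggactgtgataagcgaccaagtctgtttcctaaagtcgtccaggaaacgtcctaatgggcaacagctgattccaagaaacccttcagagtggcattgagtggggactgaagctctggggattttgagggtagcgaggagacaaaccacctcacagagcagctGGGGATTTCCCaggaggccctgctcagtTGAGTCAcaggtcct
Ltb: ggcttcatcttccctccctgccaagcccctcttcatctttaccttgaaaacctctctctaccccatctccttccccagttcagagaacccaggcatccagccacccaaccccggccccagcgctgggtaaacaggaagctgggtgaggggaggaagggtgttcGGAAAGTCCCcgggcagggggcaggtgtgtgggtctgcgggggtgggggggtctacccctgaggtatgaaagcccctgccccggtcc
Traf3: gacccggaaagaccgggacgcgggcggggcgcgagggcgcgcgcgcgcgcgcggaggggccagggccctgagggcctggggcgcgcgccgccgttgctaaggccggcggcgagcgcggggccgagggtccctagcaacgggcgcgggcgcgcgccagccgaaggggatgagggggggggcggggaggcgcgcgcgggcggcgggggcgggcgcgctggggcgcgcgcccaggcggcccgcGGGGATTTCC
Tnfrsf1b: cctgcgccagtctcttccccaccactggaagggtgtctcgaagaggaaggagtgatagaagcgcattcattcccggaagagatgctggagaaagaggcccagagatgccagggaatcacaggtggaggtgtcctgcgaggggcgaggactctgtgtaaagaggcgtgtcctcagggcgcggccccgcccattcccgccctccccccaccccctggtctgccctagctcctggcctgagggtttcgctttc
In the Tnfrsf9 sequence 2 overlapping kB matches begin 43 and 42 bases before the start, and the AP-1 match TGAGTCA begins 15 bases before it. The Traf3 match, GGGGATTTCC, is the same 10 letters and begins 10 bases before the start. In the Ltb sequence the match is GGGACTTTCC on the other strand and begins 87 bases before the start. Tnfrsf1b, the gene with the largest change of the 10, had no match to either motif in its window. The window of Tnfrsf4 and that of Tnfrsf9 at its first listed start had none either. The Tnfrsf4 window ended before the GENCODE start of that gene. The RefSeq table held 12 promoter windows for the 10 genes, each reaching 250 bases before and 50 after a start. Of these windows 4 held a kB match, 1 each of Tnfrsf9, Tnfrsf25, Traf3 and Ltb, and 1 held an AP-1 match, that of Tnfrsf9. Among all 32851 windows of that length, 8.46% held a kB match and 7.81% an AP-1 match. These are letter matches only, and binding was not measured.

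By position, 5 of the 10 genes lie on chromosome 4 in the GENCODE M21 annotation of GRCm38. They are Tnfrsf1b (chr4:145213463-145246870, minus strand), Tnfrsf9 (chr4:150914562-150946102), Tnfrsf25 (chr4:152115934-152120119), Tnfrsf4 (chr4:156013843-156016612) and Tnfrsf18 (chr4:156026164-156028895). Tnfrsf4 and Tnfrsf18 are neighbours on the plus strand, with 9551 bases between them. Cd27 lies at chr6:125232622-125237010, Ltb at chr17:35194439-35196320, Traf1 at chr2:34941750-34961772, Traf2 at chr2:25517982-25546940 and Traf3 at chr12:111166370-111267153.

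In +/+ resting cells Ltb stood highest of the 10 per gene length. Its mean was 808 FPKM (SD 65.4, n = 3), and no library of the next gene reached its range. Cd27 (264 FPKM) and Tnfrsf18 (234 FPKM) followed and overlapped each other. Below them came Tnfrsf4 (125 FPKM), Traf1 (87.3 FPKM) and Tnfrsf25 (72.0 FPKM), each apart from its neighbour in the order. Traf2 (32.6 FPKM) and Tnfrsf9 (31.0 FPKM) overlapped, Tnfrsf1b was ninth at 22.2 FPKM, and Traf3 was lowest at 8.16 FPKM. In +/+ effector cells Tnfrsf1b was sixth at 80.1 FPKM (66.2 to 95.2), above Tnfrsf9 (57.4 FPKM), Tnfrsf25 (55.3 FPKM) and Traf2 (41.5 FPKM) without overlap. In fl/+ effector cells it was seventh at 63.6 FPKM and overlapped both neighbours, Tnfrsf9 and Tnfrsf25. In fl/fl effector cells it was eighth at 35.2 FPKM (22.8 to 54.9) and overlapped Tnfrsf9 and Traf2. Ltb remained the highest and Traf3 the lowest in each of the 6 groups.

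**Figure D1:**
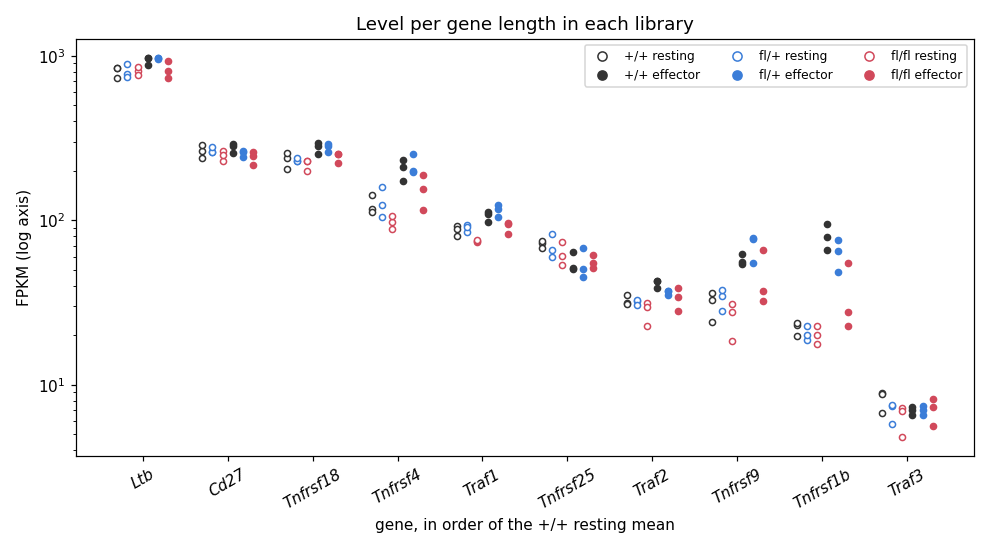
FPKM of each gene in each of the 18 libraries on a log axis, with genes ordered by their +/+ resting mean, open points for resting and filled points for effector libraries. Ltb is near 808 FPKM and Traf3 near 8.16 FPKM in +/+ resting cells, and the filled points of Tnfrsf1b lie far above its open points in +/+ and fl/+.

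The first comparison asked how the 10 genes differ between effector and resting cells of each genotype. Tnfrsf1b, Tnfrsf4 and Tnfrsf9 rose in +/+ and in fl/+ cells, and Tnfrsf4 and Tnfrsf9 were also called in fl/fl cells. No other gene of the 10 passed the threshold, an adjusted p under 0.05 in the edgeR quasi-likelihood test with Benjamini-Hochberg adjustment over all 10630 genes. In +/+ cells 3 of 10 were called higher and 0 lower, where 9.49% of all tested genes were called higher and 6.5% lower. In fl/+ cells the count was again 3 higher and 0 lower, where 9.72% of tested genes were called higher and 6.58% lower. In fl/fl cells 2 were called higher and 0 lower, where 5.01% and 1.33% of tested genes were. The median log2 change of the 10 was 0.17 in +/+, 0.17 in fl/+ and 0.14 in fl/fl, against -0.01 over all tested genes in each genotype.

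Tnfrsf1b encodes TNFR2, the receptor for TNF that regulatory T cells carry and that recruits TRAF2. In +/+ resting libraries it was at 114, 121 and 95.9 CPM, and in +/+ effector libraries at 434, 376 and 308 CPM. Every effector library was above every resting one. The log2 change was 1.76 (SE 0.22, 95% interval 1.29 to 2.22, 3.38-fold, adjusted p = 2.83e-05).

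Tnfrsf1b in fl/+ cells was at 94.3, 101 and 114 CPM when resting and at 301, 234 and 357 CPM in the effector state. The states were again apart, with a log2 change of 1.53 (SE 0.22, adjusted p = 9.36e-05). Tnfrsf1b in fl/fl cells was at 110, 102 and 90.6 CPM when resting and at 249.8, 109 and 134 CPM in the effector state. Here the states overlapped, since effector replicate 2 (109 CPM) was below resting replicate 1 (110 CPM). The log2 change was 0.73 (SE 0.22, 95% interval 0.26 to 1.19, adjusted p = 0.0585). A fit with the replicate number as a block gave 0.69 (adjusted p = 0.0439). Within batches 1, 2 and 3 the fl/fl difference of Tnfrsf1b was 1.18, 0.10 and 0.56, while that of +/+ was 1.92, 1.63 and 1.68. Leaving out 1 fl/fl effector library moved the fl/fl change of Tnfrsf1b both ways. It was 0.27 (adjusted p = 0.555) without replicate 1, 0.96 (adjusted p = 0.00753) without replicate 2 and 0.85 (adjusted p = 0.0479) without replicate 3.

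Tnfrsf4 encodes OX40, a costimulatory receptor that binds the ligand made from Tnfsf4. In +/+ cells it was at 156, 133 and 120 CPM when resting and at 231, 186 and 214 CPM in the effector state. The states did not overlap, and the log2 change was 0.63 (SE 0.16, adjusted p = 0.00857). In fl/+ cells Tnfrsf4 was at 137, 118 and 172 CPM against 199, 213 and 257 CPM, a log2 change of 0.65 (SE 0.16, adjusted p = 0.00618). In fl/fl cells Tnfrsf4 was at 102, 99.6 and 119 CPM against 186, 122 and 160 CPM, a log2 change of 0.55 (SE 0.16, adjusted p = 0.0441). The fl/fl states of Tnfrsf4 were apart by a narrow margin, 119 against 122 CPM. The call held in 17 of 28 alternatives. Without fl/fl effector replicate 1 the change was 0.39 (adjusted p = 0.299), and the call was also lost without any 1 of the 3 fl/fl resting libraries (adjusted p of 0.0643 to 0.155), without fl/fl effector replicate 3 (0.101), and with only the fl/fl groups fitted (0.0827). In +/+ the change without +/+ effector replicate 1 was 0.55 (adjusted p = 0.0525).

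Tnfrsf9 encodes CD137, a receptor that appears on T cells after activation and signals through TRAF1 and TRAF2. In +/+ cells it was at 73.6, 68.9 and 47.8 CPM when resting and at 116, 107 and 106 CPM in the effector state. The states were apart, and the log2 change was 0.79 (SE 0.22, adjusted p = 0.0159). In fl/+ cells Tnfrsf9 was at 71.9, 58.6 and 77.0 CPM against 146, 109 and 148 CPM, with a log2 change of 0.96 (SE 0.21, adjusted p = 0.00355). In fl/fl cells Tnfrsf9 was at 60.5, 39.0 and 57.9 CPM against 123, 63.7 and 71.9 CPM, a log2 change of 0.74 (SE 0.22, adjusted p = 0.0493). As for Tnfrsf4, the 3 fl/fl effector libraries were above the 3 resting ones, and replicate 1 was the highest. The Tnfrsf9 call in fl/fl held in 10 of 28 alternatives. Without effector replicate 1 the change was 0.36 (adjusted p = 0.463), and the adjusted p was 0.217 without fl/fl resting replicate 2, 0.0937 without resting replicate 3 and 0.137 with only the fl/fl groups fitted. Leaving out a single +/+ or fl/+ library also ended it in 10 of 12 cases, with adjusted p of 0.0503 to 0.0602. In +/+ the adjusted p was 0.0619 without effector replicate 1 and 0.0841 without resting replicate 3.

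**Figure D2:**
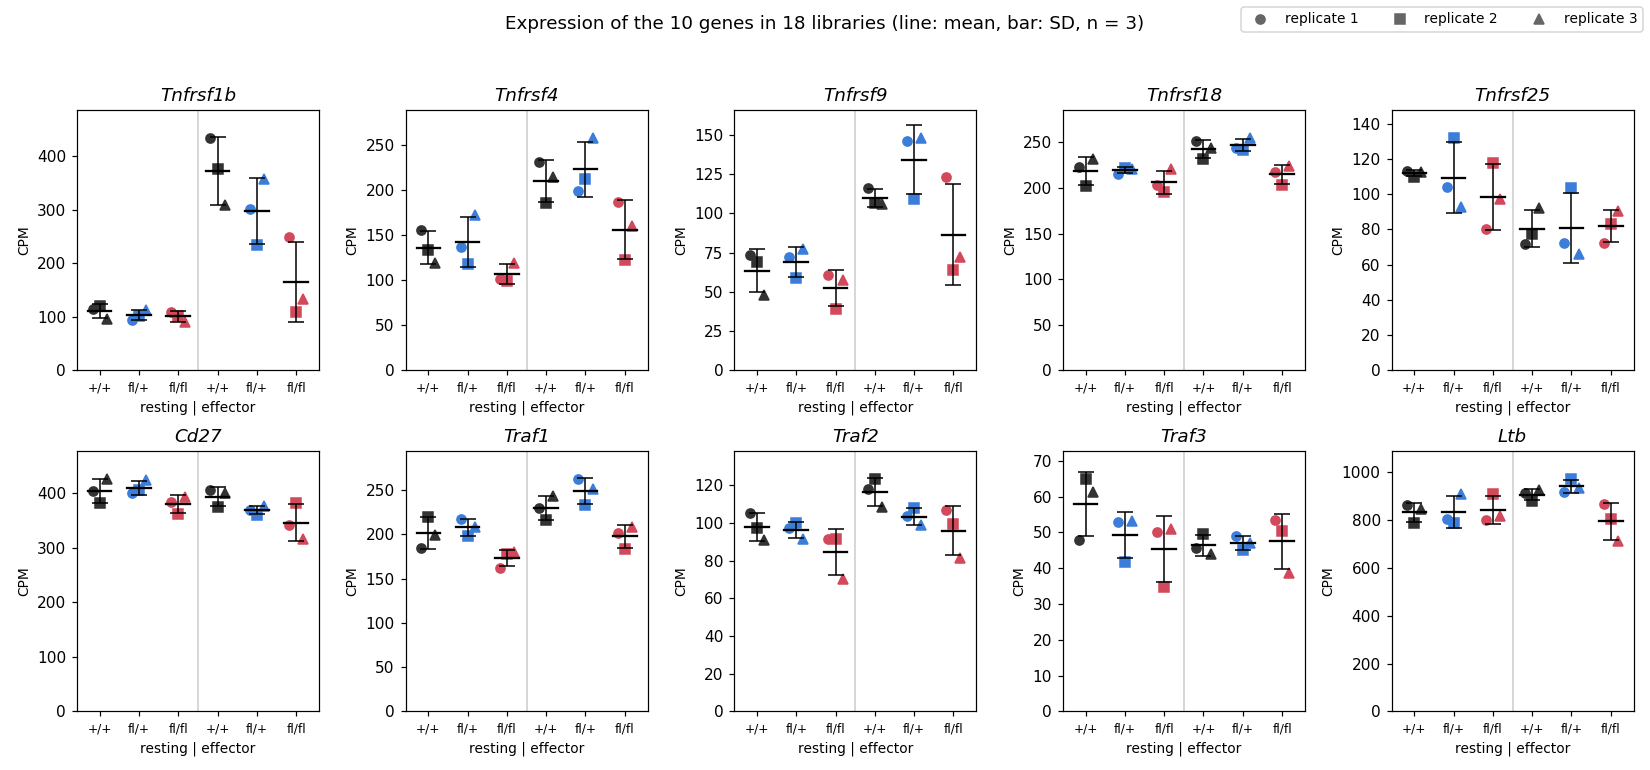
CPM of each of the 10 genes in the 18 libraries, with resting groups to the left and effector groups to the right of the grey line, one marker shape per replicate, a line at the mean and a bar for the SD (n = 3). Tnfrsf1b reaches 308 to 434 CPM in +/+ effector libraries, and 2 of its 3 fl/fl effector libraries, at 109 and 134 CPM, lie near the resting levels.

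The other 3 receptors showed smaller differences between the states. Tnfrsf18 (GITR) was at 223, 202 and 232 CPM in +/+ resting and 252, 232 and 244 CPM in +/+ effector libraries, a log2 difference of 0.15 (95% interval -0.02 to 0.32, adjusted p = 0.233). Tnfrsf25 (DR3), the receptor for the ligand made from Tnfsf15, had the opposite sign. It was at 113, 110 and 113 CPM in +/+ resting and 71.8, 77.2 and 92.4 CPM in +/+ effector libraries. All 3 effector libraries were below the resting ones, and the log2 difference was -0.48 (SE 0.17, adjusted p = 0.0616). In fl/+ cells the Tnfrsf25 difference was -0.45 (SE 0.17, adjusted p = 0.0765) with overlapping states, and in fl/fl cells -0.28 (SE 0.17, adjusted p = 0.415). With the replicate block Tnfrsf25 passed the threshold in +/+ (-0.48, adjusted p = 0.0255) and in fl/+ (-0.45, adjusted p = 0.0295).

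Cd27, a receptor of naive and memory T cells that binds CD70, was at 403, 381 and 425 CPM in +/+ resting and 405, 374 and 401 CPM in +/+ effector libraries. Its ranges overlapped widely, and the log2 difference was -0.03 (95% interval -0.20 to 0.14, adjusted p = 0.834). In fl/+ cells the 3 effector libraries of Cd27 (360 to 376 CPM) were below the 3 resting ones (400 to 424 CPM), a difference of -0.15 (adjusted p = 0.22). In fl/fl cells it was -0.13 (adjusted p = 0.415).

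The adaptor Traf1, itself a known NF-kB target that forms trimers with TRAF2, was at 185, 220 and 199 CPM in +/+ resting libraries. In +/+ effector libraries it was at 229, 216 and 243 CPM. The log2 difference was 0.19 (SE 0.09, adjusted p = 0.166). In fl/+ cells Traf1 was at 217, 198 and 209 CPM against 262, 234 and 251 CPM without overlap, a difference of 0.26 (SE 0.09, adjusted p = 0.0511), and the block gave an adjusted p of 0.0404. In fl/fl cells the Traf1 difference was 0.19 (SE 0.09, adjusted p = 0.262), also without overlap. Its 3 estimates lay within 1 SE of each other.

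Traf2, the adaptor and ubiquitin ligase scaffold that links these receptors to both NF-kB branches, was at 105, 97.3 and 90.8 CPM in +/+ resting and 118, 123 and 108 CPM in +/+ effector libraries. The states were apart, with a log2 difference of 0.25 (SE 0.12, adjusted p = 0.171). The Traf2 difference was 0.10 in fl/+ (adjusted p = 0.624) and 0.20 in fl/fl (adjusted p = 0.385). Traf3, which restrains the alternative NF-kB branch by holding the kinase NIK for degradation, was at 47.9, 64.8 and 61.2 CPM in +/+ resting and 45.6, 49.7 and 44.0 CPM in +/+ effector libraries. Its differences were -0.32 (SE 0.16, adjusted p = 0.204) in +/+, -0.07 in fl/+ and 0.09 in fl/fl, each with an interval that spans 0.

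Ltb encodes lymphotoxin beta, which with lymphotoxin alpha forms the membrane ligand of the lymphotoxin beta receptor. It was at 863, 786 and 847 CPM in +/+ resting and 913, 880 and 926 CPM in +/+ effector libraries. The states were apart but close, with a log2 difference of 0.12 (95% interval -0.05 to 0.30, adjusted p = 0.367). The Ltb difference was 0.17 in fl/+ (adjusted p = 0.179) and -0.08 in fl/fl (adjusted p = 0.666).

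Counted without a test, 5 of the 10 genes had all +/+ effector libraries above all resting ones (Tnfrsf1b, Tnfrsf4, Tnfrsf9, Traf2 and Ltb), where 16.6% of tested genes did. In fl/+ there were 6, where 18% of tested genes did, and in fl/fl 3 (Tnfrsf4, Tnfrsf9 and Traf1), where 11.7% did. In the other direction Tnfrsf25 was apart in +/+ (15.7% of tested genes) and Cd27 in fl/+ (16.1%). Other marker lists moved with the state: in +/+ the proliferation markers summed to 39.8 to 63.6 CPM in resting and 99.4 to 258 CPM in effector libraries, with 4 of 5 called higher. Regulatory T cell markers summed to 2100 to 2440 against 2870 to 3390 CPM, with Ikzf2, Ctla4 and Cd4 of 6 called higher. Markers of conventional CD4 T cells summed to 150 to 167 against 177 to 252 CPM, with 3 of 4 tested called higher. Myeloid markers summed to 63.2 to 68.7 against 91.7 to 103 CPM, with Cst3 of 2 tested called higher and Cd14 at 0 in the resting group. Dendritic cell markers summed to 2.54 to 4.34 against 4.44 to 8.46 CPM, with Clec9a at 0 in both groups. Of the CD8 T or NK cell markers Nkg7 was called higher in all 3 genotypes, and Cd8b1 and Prf1 lower in +/+ and fl/+. Proliferation markers were called higher in 5 of 5 in fl/+ and fl/fl. The part of these in the results above was not tested.

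**Figure D3:**
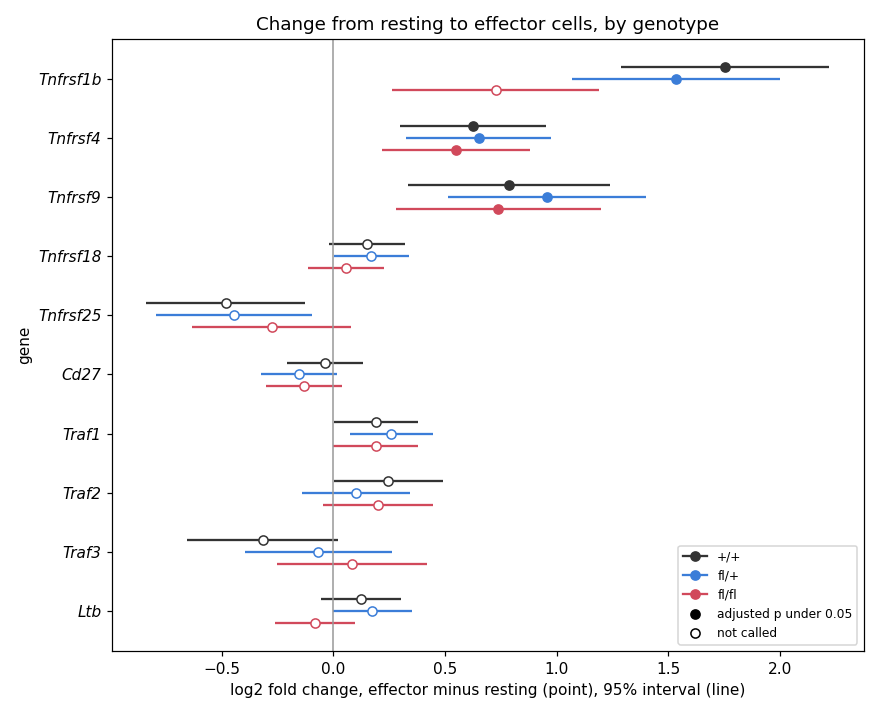
Log2 change from resting to effector cells of each gene in each genotype, with the 95% interval as a line and filled points for adjusted p under 0.05. Tnfrsf1b is at 1.76, 1.53 and 0.73 in +/+, fl/+ and fl/fl, and Tnfrsf4 and Tnfrsf9 lie between 0.55 and 0.96 in all 3.

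The second comparison asked how the genes differ between fl/fl and the other genotypes within a state. In effector cells Tnfrsf1b was lower in fl/fl than in +/+ and was the only one of the 10 called, where 1.65% of tested genes were called lower and 1.17% higher. Over all genes the test called 299, and 552 with the replicate block. Its 3 fl/fl libraries (249.8, 109 and 134 CPM) were all below the 3 +/+ libraries (434, 376 and 308 CPM). The mean was 164 CPM (SD 74.9) against 373 CPM (SD 62.8), and the log2 difference was -1.16 (SE 0.22, 95% interval -1.61 to -0.71, adjusted p = 0.00779). Within batches 1, 2 and 3 it was -0.80, -1.78 and -1.20. The call did not hold without +/+ effector replicate 1 (-1.03, adjusted p = 0.0674), without fl/fl effector replicate 2 (-0.93, adjusted p = 0.0639) or with only these 2 groups fitted (-1.16, adjusted p = 0.0518). Without fl/fl effector replicate 1 it was -1.62 (adjusted p = 6.53e-05).

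Against fl/+, which does not share the +/+ libraries, the Tnfrsf1b difference of fl/fl effector cells was -0.83 (SE 0.22, adjusted p = 0.0782). The groups overlapped because fl/fl replicate 1 (249.8 CPM) was above fl/+ replicate 2 (234 CPM). With the replicate block the difference was -0.87 (adjusted p = 0.0278), and without fl/fl effector replicate 1 it was -1.30 (adjusted p = 0.0024). Both comparisons use the same fl/fl libraries. In resting cells Tnfrsf1b was at 90.6 to 110 CPM in fl/fl and 95.9 to 121 CPM in +/+, a difference of -0.13 (95% interval -0.60 to 0.34, adjusted p = 0.961).

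The change of Tnfrsf1b between states was thus 1.76 in +/+ and 0.73 in fl/fl. The difference of these changes, tested as an interaction, was -1.03 (SE 0.31, 95% interval -1.68 to -0.38, unadjusted p = 0.00369, adjusted p = 0.356). In that test edgeR called 0 of the 10 genes and 0% of all tested genes, and DESeq2 called none of the 10. Tnfrsf1b was the 1 of the 10 with an unadjusted p under 0.05, where 8.97% of tested genes had one. Without fl/fl effector replicate 1 the Tnfrsf1b interaction was -1.49 (adjusted p = 0.0234). It was called in 2 of 28 alternatives, that one and the fit without the filter on low counts. It was not called without both fl/fl libraries of batch 1. For fl/+ the Tnfrsf1b interaction was -0.22 (95% interval -0.87 to 0.43). There 0 of the 10 were called by edgeR or DESeq2 and 0 had an unadjusted p under 0.05, where 0.0188% of tested genes were called and 3.23% had such a p.

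Tnfrsf4 and Tnfrsf9 also had lower means in fl/fl effector cells but did not pass the threshold. Tnfrsf4 was at 156 CPM (SD 32.4) in fl/fl, 210.3 CPM (SD 23.1) in +/+ and 223 CPM (SD 30.6) in fl/+. The log2 difference of fl/fl was -0.43 from +/+ (SE 0.16, adjusted p = 0.145) and -0.51 from fl/+ (SE 0.15, adjusted p = 0.141), the latter without overlap. Without fl/fl effector replicate 1 the 2 values were -0.59 (adjusted p = 0.0443) and -0.67 (adjusted p = 0.0354). Tnfrsf9 was at 86.3 CPM (SD 32.2) in fl/fl, 109.7 CPM (SD 5.77) in +/+ and 134 CPM (SD 22.0) in fl/+. Its difference was -0.32 from +/+ (SE 0.21, adjusted p = 0.492) and -0.61 from fl/+ (SE 0.21, adjusted p = 0.204). Without fl/fl effector replicate 1 these were -0.70 (adjusted p = 0.0432) and -0.995 (adjusted p = 0.0122). The interaction of state and fl/fl was -0.08 (95% interval -0.54 to 0.39) for Tnfrsf4 and -0.05 (-0.69 to 0.60) for Tnfrsf9. Without fl/fl effector replicate 1 it was -0.23 (adjusted p = 0.751) for Tnfrsf4 and -0.42 (adjusted p = 0.571) for Tnfrsf9.

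Most of the other genes lay slightly lower in fl/fl effector cells than in +/+ ones. Tnfrsf18 was at 215 against 243 CPM (-0.18, adjusted p = 0.262), Cd27 at 346 against 393 CPM (-0.18, adjusted p = 0.246) and Ltb at 794 against 906 CPM (-0.19, adjusted p = 0.257). Traf1 was at 198 against 229 CPM (-0.22, adjusted p = 0.208) and Traf2 at 96.0 against 116 CPM (-0.26, adjusted p = 0.248). Tnfrsf25 (0.02, 95% interval -0.35 to 0.38) and Traf3 (0.06, -0.28 to 0.40) were the 2 with a positive sign. The median of the 10 was -0.20, against 0.01 over all tested genes. Without overlap 5 were lower (Tnfrsf1b, Tnfrsf18, Traf1, Traf2 and Ltb), where 10.2% of tested genes were, and 0 were higher, where 10.3% were.

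Against fl/+ effector cells 0 of the 10 were called, where 0.677% of tested genes were and 6 of the 10 had an unadjusted p under 0.05 (11.8% of tested genes). Traf1 came closest after Tnfrsf1b, at 198 against 249 CPM (-0.34, SE 0.09, adjusted p = 0.0906), without overlap, and DESeq2 called it (adjusted p = 0.0318). Tnfrsf4, Tnfrsf18, Traf1 and Ltb, 4 of the 10, were lower without overlap, where 8.45% of tested genes were. The median was -0.22 against 0.01.

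In resting cells none of the 10 was called between fl/fl and +/+ by edgeR or DESeq2, where 0.696% of tested genes were called by edgeR. Of the 10, 3 had an unadjusted p under 0.05 (8.21% of tested genes). Those were Tnfrsf4 (107 against 136 CPM, -0.35, adjusted p = 0.574), Traf1 (173 against 201 CPM, -0.21, adjusted p = 0.51) and Traf3 (45.3 against 58.0 CPM, -0.34, adjusted p = 0.589). Tnfrsf4 and Traf1 were lower without overlap (5.46% of tested genes). The median of the 10 was -0.20 against 0.00 over all tested genes. Against fl/+ resting cells 0 were called (0.0282% of tested genes), 2 had an unadjusted p under 0.05 (4.83%), and Cd27, Traf1 and Traf2 were lower without overlap (4.67%).

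Between fl/+ and +/+, 0 of the 10 were called in effector cells (0.00941% of tested genes) and 0 in resting cells (0.0847%), and none had an unadjusted p under 0.05 in either state (5.47% and 6.29% of tested genes). For Tnfrsf1b the effector difference was -0.33 (95% interval -0.77 to 0.11), with 234 to 357 CPM in fl/+ and 308 to 434 CPM in +/+. Traf2 alone was apart, at 98.7 to 107.7 CPM in fl/+ and 108.3 to 123 CPM in +/+ effector cells (-0.17, adjusted p = 0.943), where 5.83% of tested genes were lower without overlap. These comparisons share their +/+ libraries with those of fl/fl.

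Marker lists differed beside these genotype comparisons. Regulatory T cell markers summed to 1990 to 2610 CPM in fl/fl effector libraries and 2870 to 3390 CPM in +/+ ones, with Ikzf2 and Ctla4 of 6 called lower. Ikzf2 was also called lower in fl/fl than in fl/+ effector cells and than in +/+ resting cells. Proliferation markers summed to 266 to 368 CPM in fl/fl and 99.4 to 258 CPM in +/+, with Birc5 of 5 called higher. Myeloid markers summed to 73.2 to 77.4 CPM in fl/fl and 91.7 to 103 CPM in +/+, with none of 2 tested called and Csf1r and Cd14 at 0 in fl/fl effector libraries. B cell markers summed to 16.9 to 29.5 CPM in fl/fl and 29.9 to 40.7 CPM in +/+, with none of 5 tested called, and Pax5 and Ebf1 had 0 counts in +/+ effector libraries. Their part in the Tnfrsf1b difference was not tested.

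**Figure D4:**
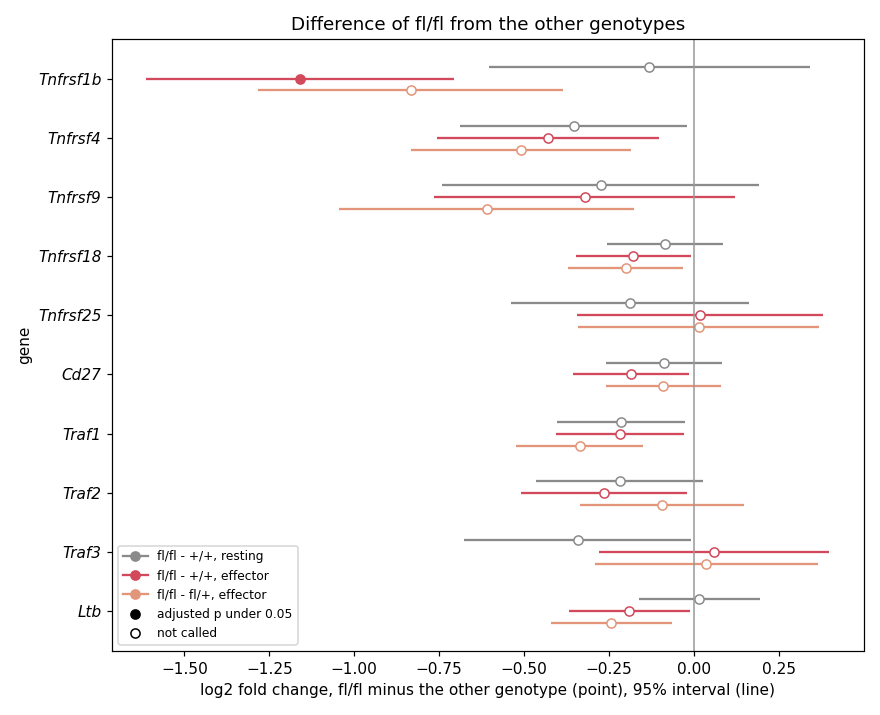
Log2 difference of fl/fl from +/+ in resting and effector cells and from fl/+ in effector cells for each gene, with the 95% interval as a line and filled points for adjusted p under 0.05. The Tnfrsf1b difference from +/+ in effector cells, -1.16, is the filled point, and the points of the other 9 genes lie between -0.61 and 0.06.

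Across the 18 libraries the receptors that rose with the state followed each other. On log2 CPM, Pearson's r was 0.93 between Tnfrsf4 and Tnfrsf9, 0.88 between Tnfrsf1b and Tnfrsf9, and 0.88 between Tnfrsf1b and Tnfrsf4. Tnfrsf4 was also close to its neighbour on chromosome 4, Tnfrsf18 (r = 0.84), and to Traf1 (r = 0.83). These values are descriptive, since the libraries share their groups. The tested genes nearest to Tnfrsf1b were Pear1 (r = 0.99) and Srgn (r = 0.98). For Tnfrsf4 they were Tnfrsf9 itself and Dnase2a (0.92), and for Tnfrsf9 Dtx3 (0.94) and Fam129a (0.94). The nearest to Tnfrsf18 were Sdf4 (0.88) and Upf3b (0.86), to Tnfrsf25 Pradc1 (0.88) and Cyth1 (0.87), and to Cd27 Ttc14 (0.83) and Clcn7 (0.82). For the adaptors they were Npepps (0.89) and Naip6 (0.88) for Traf1, Vamp5 (0.90) and Prss12 (0.89) for Traf2, and Ttc37 (0.82) and Stag1 (0.79) for Traf3. Ltb was nearest to Slc4a7 (0.83) and Nab2 (0.82).

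Of 16 listed ligands other than Ltb, 11 could be tested. In +/+ 8 were called higher with the state and 0 lower, where 9.49% of all tested genes were called higher and 6.5% lower. In fl/+ the counts were 7 and 0 (9.72% and 6.58% of tested genes) and in fl/fl 4 and 0 (5.01% and 1.33%), or 3 and 0 in fl/fl without both libraries of batch 1. Their median log2 change was 0.93, 0.64 and 0.70, against -0.01 over all tested genes in each genotype. Tnfsf11 encodes RANKL, which osteoclast precursors and lymphoid stroma sense. It was at 5.83, 10.5 and 9.08 CPM in +/+ resting and 44.4, 79.8 and 58.0 CPM in +/+ effector libraries. Its log2 change was 2.85 in +/+ (SE 0.33, adjusted p = 1.43e-05), 2.58 in fl/+ (SE 0.30, adjusted p = 1.81e-05) and 1.74 in fl/fl (SE 0.32, adjusted p = 0.00247). Tnfsf14 encodes LIGHT, which binds the lymphotoxin beta receptor, as the Ltb product does, and HVEM. It rose by 3.50 in +/+ (41.3 against 3.38 CPM, adjusted p = 0.000131), by 4.61 in fl/+ (adjusted p = 4.39e-05) and by 2.93 in fl/fl (adjusted p = 0.00229). The fl/fl effector libraries of Tnfsf14 were at 52.8, 13.4 and 12.1 CPM, with replicate 1 far above the others. Its fl/fl change was 1.81 (adjusted p = 0.0329) without effector replicate 1 and 3.83 (adjusted p = 0.00121) without resting replicate 1.

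Cd40lg, which activates B cells and dendritic cells through CD40, was called higher in all 3 genotypes (0.57, 0.83 and 0.85 in +/+, fl/+ and fl/fl). It is also on the list of conventional CD4 T cell markers. The fl/fl effector libraries of Cd40lg were at 64.8, 44.6 and 44.1 CPM, and the adjusted p was 0.0498 without effector replicate 1. Its +/+ call held in 25 of 28 alternatives. Tnfsf10 (TRAIL) rose in +/+ (0.50, adjusted p = 0.0214) and fl/+ (0.64, adjusted p = 0.00372) and was at 0.26 in fl/fl (adjusted p = 0.357). Tnf, the ligand of TNFR2, rose in +/+ (50.4 against 25.8 CPM, 0.98, adjusted p = 0.00411), and its difference was 0.41 in fl/+ and 0.34 in fl/fl (adjusted p = 0.436). The OX40 ligand gene Tnfsf4 was also called in all 3 genotypes, on few reads: 1 count in the 3 +/+ resting libraries together and 12 in the effector ones, 9 against 47 in fl/+ and 9 against 46 in fl/fl. Tnfsf13b (BAFF), called in +/+ and fl/+, had 2 against 32 counts in +/+, 3 against 43 in fl/+ and 0 against 8 in fl/fl. The Tnfsf4 call held in 17 of 27 alternatives that gave a value in +/+, 20 of 28 in fl/+ and 21 of 28 in fl/fl. At those depths the sizes of the changes of Tnfsf4 and Tnfsf13b were not resolved.

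Tnfsf8, the ligand of CD30, was the listed ligand called between genotypes in the fit of all 18 libraries. Without both fl/fl libraries of batch 1, Tnfsf14 was also called lower in fl/fl than in +/+ effector cells, and Tnfsf11 and Tnfsf14 lower than in fl/+ effector cells. Over all genes the calls also rose in that setting, from 299 to 711 against +/+ and from 72 to 349 against fl/+. In effector cells Tnfsf8 was at 158, 181 and 108 CPM in +/+ and 89.2, 84.2 and 93.7 CPM in fl/fl. The groups were apart, and the log2 difference was -0.74 (SE 0.16, adjusted p = 0.0191). The call was lost without +/+ effector replicate 1 (adjusted p = 0.116) or 2 (0.129), without fl/fl effector replicate 2 (0.115) or 3 (0.0552), and in 2 other alternatives. With the state Tnfsf8 rose in +/+ (0.93, adjusted p = 0.000561) and in fl/+ (0.61, adjusted p = 0.0147) and was at 0.45 in fl/fl (adjusted p = 0.134). The CD30 gene itself, Tnfrsf8, was called higher with the state in all 3 genotypes, again on few reads: 1 against 64 counts in +/+, 3 against 74 in fl/+ and 2 against 33 in fl/fl. The fl/fl call held in 20 of 27 alternatives that gave a value.

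**Figure D5:**
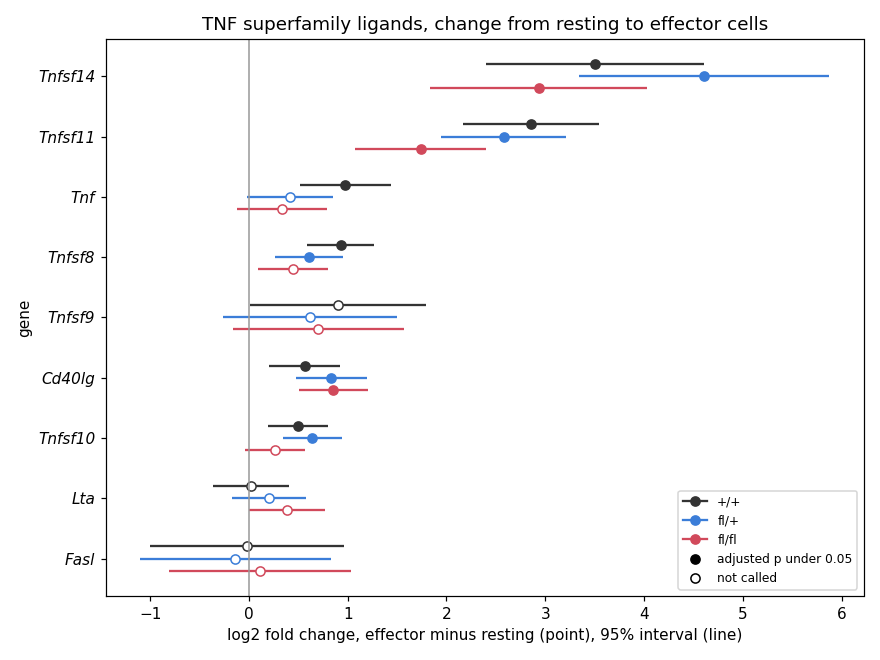
Log2 change from resting to effector cells of the 9 tested ligand genes other than Tnfsf4 and Tnfsf13b, whose resting groups held 3 counts or fewer in some genotype, with 95% intervals and filled points for adjusted p under 0.05. Tnfsf14 and Tnfsf11 lie farthest to the right, with Tnfsf11 at 2.85, 2.58 and 1.74 in +/+, fl/+ and fl/fl.

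Among 22 other receptors of the family 11 could be tested. Besides Tnfrsf8, 2 fell with the state in +/+ and 2 in fl/+, where 6.5% and 6.58% of all tested genes were called lower. Tnfrsf1a, the TNF receptor with a death domain and the counterpart of TNFR2, fell by 0.43 in +/+ (33.5 against 45.3 CPM, adjusted p = 0.0434), a call that held in 9 of 28 alternatives. Relt fell by 0.64 in +/+ (adjusted p = 0.0155) and by 0.88 in fl/+ (adjusted p = 0.00129), and the death receptor gene Fas fell by 0.45 in fl/+ (adjusted p = 0.0282). The Fas call held in 21 of 28 alternatives and was lost without fl/+ resting replicate 1 (adjusted p = 0.238). None of the 11 was called between genotypes by edgeR. Between fl/fl and +/+ effector cells 1.17% of all tested genes were called higher and 1.65% lower. In that comparison 1 of 11 had an unadjusted p under 0.05. The count was also 1 between fl/+ and +/+ (5.47% of tested genes) and between fl/fl and fl/+ effector cells (11.8%).

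Of 8 other TRAF genes and TRAF-interacting genes, 1 was called lower with the state, where 6.5% of tested genes were in +/+ and 6.58% in fl/+. Traf3ip3 fell by 0.35 in +/+ (adjusted p = 0.0115) and by 0.43 in fl/+ (adjusted p = 0.00233). Of 29 tested signalling genes below the receptors, 3 rose and 2 fell in +/+, where 9.49% and 6.5% of all tested genes did, so the shares were near the background. Nfkb2 (0.56, adjusted p = 0.0236) and Relb (1.06, adjusted p = 0.000266), which encode the subunits of the alternative NF-kB branch, rose, as did Nfkb1 (0.46, adjusted p = 0.017). Casp8, the caspase of death receptors, fell by 0.61 (adjusted p = 0.00201), and the kinase gene Ikbkb fell by 0.40 (adjusted p = 0.0183). In fl/+ Nfkb2, Relb and Siva1 were called higher and Casp8 and Ikbkb lower (9.72% and 6.58% of tested genes), and the call of Siva1 held in 10 of 28 alternatives. In fl/fl edgeR called 0 of the 29 and 7 had an unadjusted p under 0.05, where 19.1% of all tested genes had one. The change of Relb was 0.41 (adjusted p = 0.19) and that of Nfkb2 0.30 (adjusted p = 0.341).

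In fl/fl effector libraries Relb was at 103, 59.7 and 76.8 CPM and Nfkb2 at 125, 85.5 and 91.9 CPM, so replicate 1 was the highest for both. The fit of all 18 libraries called 0 of the 29 between fl/fl and +/+ or fl/+ effector cells. Without both fl/fl libraries of batch 1, Nfkb2, Nfkbia and Relb were called lower in fl/fl than in +/+ and than in fl/+ effector cells. Casp8 and Traf4 were then called higher in fl/fl than in +/+ effector cells. Over all 10630 genes the calls also rose in that setting, from 299 to 711 against +/+ and from 72 to 349 against fl/+.

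With the replicate block Nfkb1 was called higher with the state in fl/fl, and Cflar lower in both fl/+ and fl/fl. In +/+ the block also called Map3k5 higher and Rel lower with the state. Between fl/fl and +/+ effector cells the block called Casp8 and Traf4 higher and Nfkbia and Tnfaip3 lower in fl/fl. It also called Traf4 higher in fl/fl than in +/+ resting cells and Nfkb2 lower in fl/fl than in fl/+ effector cells. Tnfrsf26 was called higher with the state in +/+, and Nfkbia in fl/+, without both fl/fl libraries of batch 1. Nfkbia, Tnfaip3, Cflar, Traf4, Map3k5, Rel and Tnfrsf26 are named because these alternatives called them, after their values were seen. Without the block the log2 differences of fl/fl from +/+ effector cells were 0.40 for Casp8 (adjusted p = 0.0894), 1.38 for Traf4 (adjusted p = 0.063), -0.55 for Nfkbia (adjusted p = 0.0727) and -0.68 for Tnfaip3 (adjusted p = 0.298).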

How the data were processed

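RNA-seq libraries of sorted mouse regulatory T cells were processed by the authors with STAR 2.6.0, RSEM 1.2.8 and bcl2fastq 2.17.1.14 on build mm10, per the submitters' processing notes. The sources used here give no annotation, strand setting or filter. The deposited expected counts per gene, which RSEM gives and which need not be whole (29.4% of nonzero values were not, by over 0.005), were rounded for every main test. The deposited FPKM values of the authors were used for levels between genes and in alternatives.

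The analysis used edgeR 4.0.16 under R 4.3.3: TMM scaling (factors 0.9394 to 1.063), filterByExpr by group (10630 genes kept), a model of 6 group means over 18 libraries (12 residual degrees of freedom, common dispersion 0.0215) and quasi-likelihood F tests of 11 contrasts, with a threshold of 0.05 on the Benjamini-Hochberg adjusted p. Intervals are 95% intervals of the fit. Alternatives used DESeq2 1.42.0, relative log expression factors, no filter, library sizes without the ribosomal gene Rn45s (10.9 to 16.4% of a library), limma 3.58.1 on log2(FPKM + 1) or log2(FPKM + 0.1), a replicate block, only the groups compared, and each library left out. Leaving out both fl/fl libraries of batch 1 was chosen after seeing the data. The procedure was also run on simulated counts, with changes in the fl/fl effector group only and independent libraries. That run does not bear on the pairing of libraries by batch. Replicates correlated at 0.953 to 0.976 and differed by more than counting error (chi-square per gene 3.43 to 6.93), so none was treated as a duplicate.

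The labels call the replicate number a batch, so it pairs libraries, and the main tests did not use this pairing. The replicate block fits a level per number that all genotypes share, so it does not model pairs within a genotype. In the residuals the 9 pairs of the same genotype and number had a mean correlation of 0.207 (0.141 to 0.345), and the 36 pairs of the same number in other genotypes 0.0666, of which 12 were over 0.1.

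All 10 genes are named. Genes of 4 pathway lists were named when called in a contrast, at most 8 a list, and for each of the 10 genes the 2 most correlated tested genes, leaving out predicted models and small RNA genes. Marker lists covered 9 cell types or states. The 10 genes and the lists were chosen with earlier results of these data known. Values of the floxed gene itself are not reported here.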

Additional observations from a re-analysis of the deposited data

How the results depend on the processing

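No called change of the 10 genes changed sign under any alternative. Of 3080 values (gene, contrast and alternative), 2883 kept direction and side of the threshold, 47 gained a call, 35 lost one and 115 were uncalled values whose sign changed. The number of the 10 genes called with the state in +/+ was 3 and ran from 1 to 4 when each library was left out in turn (1 without +/+ effector replicate 1). In fl/+ it was 3, 5 with the replicate block, and 3 to 5 over libraries left out. In fl/fl it was 2, 3 with the replicate block, 1 with limma on log2(FPKM + 1) or log2(FPKM + 0.1), and 0 with limma on all genes above 0, with only the groups compared or without both fl/fl libraries of batch 1. Over libraries left out it was 0 to 3. Between fl/fl and +/+ effector cells it was 1, 2 without the filter, 0 with only the groups compared, 3 without both fl/fl libraries of batch 1 and 0 to 3 over libraries left out. Between fl/fl and fl/+ effector cells it was 0, 1 with DESeq2, 3 without the filter, 1 with the replicate block, 3 without both fl/fl libraries of batch 1 and 0 to 3 over libraries left out. For the fl/fl interaction it was 0, 1 without the filter and 0 to 1 over libraries left out. For the 10 genes the replicate block changed only the calls given beside the results, and the other contrasts had 0 called throughout. Calls over all genes also moved by over 1.5 times. Between states in fl/+ they were 1732, or 1092 when fl/+ effector replicate 3 was left out. Those of fl/fl were 674, with 1012 without the filter, 349 with only the groups compared, 344 without both libraries of batch 1 and 266 to 791 over libraries left out. Between fl/fl and +/+ effector cells they were 299, with 830 without the filter, 455 with DESeq2, 552 with the block, 183 with limma on log2(FPKM + 0.1), 154 with only the groups compared, 711 without both of batch 1, and 31 (without +/+ effector replicate 1) to 648 (without fl/fl effector replicate 1) over libraries left out. In resting cells they were 74 and ran from 6 (without +/+ resting replicate 1) to 315 (without the filter), with 179 with the block. Between fl/fl and fl/+ effector cells they were 72 and ran from 3 (without fl/+ effector replicate 3) to 488 (without the filter), with 178 with DESeq2 and 181 with the block, and in resting cells 3 and up to 94 without the filter. Between fl/+ and +/+ they were 1 in effector and 9 in resting cells, 34 and 90 with the block, and 176 and 219 without the filter. For the fl/fl interaction they were 0, with 246 without the filter, 15 with DESeq2 and up to 33 over libraries left out, and for the fl/+ interaction 2 and 31 without the filter. The causes were not tested. Of 39 pathway calls, 20 held in every alternative that gave a value and 0 changed sign. Depth limits Tnfrsf8, Tnfsf4 and Tnfsf13b, which had 0 to 3 counts in some resting groups.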
